A study of Drosophila melanogaster with 2 samples.

Results

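Of the 4033 rows of a list of chromatin immunoprecipitation (ChIP-seq) peaks for the transcription factor Camta in fly embryos, 983 (24.4%) were covered by the strongest regions of only 1 of the 2 replicates. The list is the authors' final one, made by the irreproducible discovery rate (IDR) procedure, and each replicate also has a longer, relaxed list of candidate regions ranked by signal value. From each relaxed list the 4033 regions of highest signal value were taken, as many as there are IDR rows, and an IDR row was assigned to a replicate if a single such region spanned 50% of it or more. On that rule 359 rows (8.90%) were replicate 2-only, 624 (15.5%) were replicate 3-only, 3003 (74.5%) were covered in both and 47 in neither. The rows were chosen by these measured signal values, so ranks and signals at them are given below as a description. Location, sequence and genes were not used by the rule.

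The study has a single group, whole *Drosophila melanogaster* embryos of the Camta-MiMIC-GFP strain, both sexes pooled, 0 to 24 h old. An exon coding for eGFP sits in an intron of Camta in this line, so the fusion protein is made from the gene's own locus, and an antibody to GFP pulled it down. Biological replicates 2 and 3 gave 1 library each. There was no second condition, so every comparison below sets rows of these lists against each other, and the 0 to 24 h collection mixes all embryonic stages and cell types. No file gives read counts, so neither library's depth is known, and intervals express row numbers alone.

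Camta belongs to the calmodulin-binding transcription activators, which link calcium signals to transcription by binding calmodulin and recognise a CGCG box in DNA. In the fly it is known for its part in shutting off the light response of photoreceptors, with the F-box gene Fbxl4 among its targets. The IDR procedure keeps regions whose ranks are reproducible between replicates, so a row can pass although 1 replicate ranks it lower. Promoters in this genome carry short elements with known binders: the TATA box, bound by the TATA-binding protein, the GAGA motif of GAGA factor, Motif 1 of M1BP, the DNA replication-related element (DRE) of DREF, and the CAGGTA core bound by Zelda in the early embryo.

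Both sides are shown here by 5 windows each, because base composition, and motif shares that moved with it, were among the measures in which the sides differed. For each side the windows of highest pooled signal that held a motif more frequent on that side were taken, after the motif counts were known: 3 with a CGCG box and 2 with GAGA (replicate 2-only), and 3 with a TATA box and 2 with Motif 1 (replicate 3-only). At each, a weaker region of the other replicate covered at least 50% of the row, and the window overlapped no annotated exon. Each runs from 50 bp before to 50 bp after the summit, plus strand of the RefSeq Release 6 assembly, which has dm6 coordinates, in lower case with matches to the motif panel in capitals on either strand. From the replicate 2-only side came Sqor, a sulfide quinone oxidoreductase gene, eyg, a gene of a Pax-family transcription factor, and pb, a homeotic gene, all with a CGCG box, and tai, a steroid receptor coactivator gene, and Reck, both with GAGA.
Sqor (chr3L:4239608-4239708): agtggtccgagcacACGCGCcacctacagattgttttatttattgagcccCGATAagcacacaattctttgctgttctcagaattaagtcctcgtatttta
eyg (chr3L:12468173-12468273): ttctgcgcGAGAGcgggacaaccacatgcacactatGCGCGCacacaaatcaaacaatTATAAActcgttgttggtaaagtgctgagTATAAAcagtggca
pb (chr3R:6723905-6724005): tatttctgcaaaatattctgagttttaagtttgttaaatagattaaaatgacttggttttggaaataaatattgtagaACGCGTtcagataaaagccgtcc
tai (chr2L:9176220-9176320): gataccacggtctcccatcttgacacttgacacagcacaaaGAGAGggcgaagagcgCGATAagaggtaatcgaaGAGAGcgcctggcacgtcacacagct
Reck (chr3L:15014067-15014167): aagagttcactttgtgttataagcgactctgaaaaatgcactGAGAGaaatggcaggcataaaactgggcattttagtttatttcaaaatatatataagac
From the replicate 3-only side came CG2698, the mitotic kinase gene Cdk1 and the homeotic gene Antp with a TATA box, and sdt, a gene of epithelial polarity, and rux, which encodes an inhibitor of cyclin-dependent kinases, with Motif 1.
CG2698 (chr3R:8001387-8001487): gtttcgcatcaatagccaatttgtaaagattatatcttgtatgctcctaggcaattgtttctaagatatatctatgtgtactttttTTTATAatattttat
Cdk1 (chr2L:10386395-10386495): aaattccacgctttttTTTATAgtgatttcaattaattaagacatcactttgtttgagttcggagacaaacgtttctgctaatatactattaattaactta
Antp (chr3R:6912470-6912570): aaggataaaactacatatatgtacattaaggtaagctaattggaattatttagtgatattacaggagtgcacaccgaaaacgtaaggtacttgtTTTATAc
sdt (chrX:8202905-8203005): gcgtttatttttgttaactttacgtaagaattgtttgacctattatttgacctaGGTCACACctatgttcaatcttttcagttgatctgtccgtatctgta
rux (chrX:6037392-6037492): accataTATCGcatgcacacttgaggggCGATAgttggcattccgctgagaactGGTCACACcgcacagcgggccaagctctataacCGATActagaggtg
The window at tai held GC at 54.5%, 88 bp upstream of the start, and that at CG2698 25.7%, 125 bp upstream. The window at pb, in an intron, stood at 28.7% and that at rux at 53.5%, so single windows of either side can have the composition typical of the other.

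Most rows were uneven between the replicates rather than absent from one. At 335 of the 359 replicate 2-only rows (93.3%) a weaker region of replicate 3 covered at least 50% of the row, and at 562 of the 624 replicate 3-only rows (90.1%) a weaker region of replicate 2 did. Counting down each list from its 4033 strongest regions, the covering region lay within 1.25 times that number at 223 replicate 2-only rows (62.1%) and 251 replicate 3-only rows (40.2%), and within 2 times that number at 327 (91.1%) and 486 (77.9%). The covering region of the other replicate had a q value of 0.01 or less at 218 replicate 2-only rows (60.7%) and 351 replicate 3-only rows (56.3%). No region of the other list touched the row at 1 replicate 2-only row and 3 replicate 3-only rows.

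**Figure D1:**
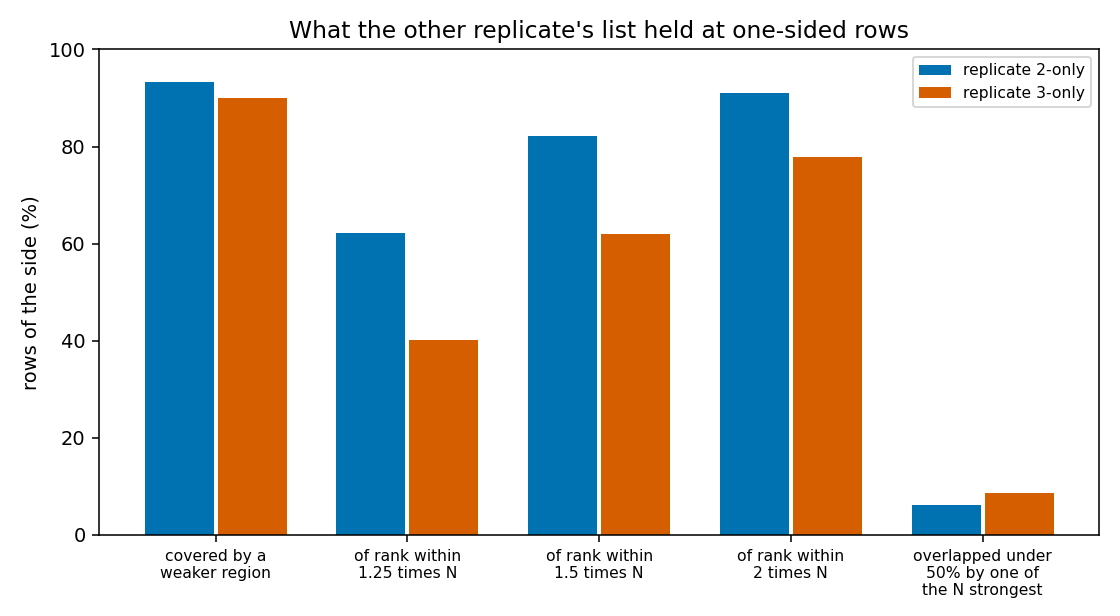
Percent of replicate 2-only rows (blue, n = 359) and replicate 3-only rows (orange, n = 624) by what the other replicate's relaxed list held there. N is 4033, and the 3 middle pairs are subsets of the first. A weaker region covered 93.3% of the replicate 2-only rows and 90.1% of the replicate 3-only rows, and by 2 times N 91.1% and 77.9% were reached.

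The rows at the edge of the rule differed by very little. On the replicate 2-only side the member just outside the limit was at lncRNA:CR43314 on 2L, where the region of replicate 3 ranked 4034 with a signal value of 57.92, and the row of both just inside it was at Grx1, a glutaredoxin gene, where the region of replicate 3 ranked 4026 with 57.97. On the replicate 3-only side the member just outside was at CG46307, where the region of replicate 2 ranked 4034 with a signal value of 40.27, and the row of both just inside was at lncRNA:CR34006, ranked 4033 with 40.27. The median rank of the covering region was 2581 in replicate 2 and 4673 in replicate 3 at the replicate 2-only rows, and 5325 in replicate 2 and 2674 in replicate 3 at the replicate 3-only rows. In the pooled list the median signal value was 103.5 over replicate 2-only rows, 109.5 over replicate 3-only rows and 174.3 over rows covered in both, and 349 of 359, 584 of 624 and 1040 of 3003 rows of these sets lay in the lower 50% by pooled signal.

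**Figure D2:**
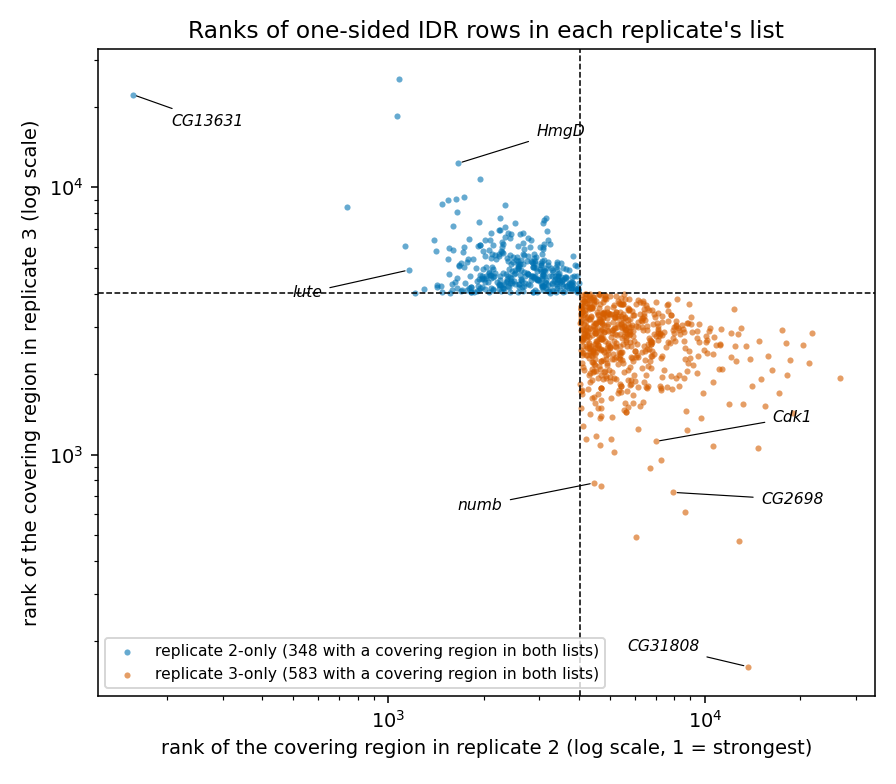
Rank of the covering region in replicate 2 (x) and replicate 3 (y), both on log scales with 1 the strongest, for the 348 replicate 2-only rows (blue) and 583 replicate 3-only rows (orange) that have a covering region in both lists. The dashed lines stand at rank 4033. Most points lie close to the crossing of the lines, and the replicate 3-only rows reach further from it in the other list, with an upper quartile of rank 6706 in replicate 2 against 5342 in replicate 3 for the replicate 2-only rows.

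For some members the label of strength in 1 replicate alone goes against the data. At 22 replicate 2-only rows (6.13%) and 54 replicate 3-only rows (8.65%), one of the 4033 strongest regions of the other replicate did overlap the row, but over less than 50% of its length. They number 10 of the 20 replicate 2-only rows of highest pooled signal, and 19 of the 20 on the replicate 3-only side. At spi, which encodes the Spitz ligand of the EGF receptor, the row chr2L:19575616-19575997 had a pooled signal value of 635.4, the highest of all members. Its region in replicate 3 ranked 82 and covered 62.3% of the row, and the region in replicate 2 ranked 139 and covered 49.5%. The row was strong in both lists, and the boundary of a region decided its side. At other rows of this set the overlapping region had its summit well away from that of the row, and how many are of each kind was not counted.

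The same held at the next members of the replicate 3-only side. CG31612 ranked 97 in replicate 3, and the overlapping region of replicate 2 ranked 175. CG8892 ranked 89 against 250, Gdap2 148 against 146, and an intron of Alh, the gene of a zinc finger protein, 160 against 172. The rows at CG7183 ranked 137 in replicate 3 and 222 in replicate 2, those at Pax, the paxillin gene, 201 and 155, at CG31808 161 and 355, and in an intron of bmm, which encodes a triglyceride lipase, 204 and 227. Only lncRNA:CR43626 among these 10 strongest, ranked 179 in replicate 3, had no overlapping region in replicate 2, and its row there was 223 bp long.

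The replicate 2-only side opened in the same way. An intron of Prps, the phosphoribosyl pyrophosphate synthetase gene, ranked 191 in replicate 2, and the overlapping region of replicate 3 ranked 129 and covered 43.1% of the row. CG13631 ranked 156 against 147, both summits listed at prage 241 against 303, and rudhira 234 against 416. The row at lncRNA:CR43644, also within 500 bp of a start of E(spl)m3-HLH, a Notch target, ranked 384 in replicate 2 and met no region of replicate 3, and it is 148 bp long. The row at Dus2 and Fbxl4, the Camta target, ranked 655 in replicate 2 and 409 in replicate 3, where the region covered 27.1% of it, so the promoter of Fbxl4 was strong in both replicates. The last rows named here differed. The row at eIF3h, a translation initiation factor gene, ranked 592 in replicate 2. The replicate 3 region that overlapped 40.1% of it ranked 1079, with its summit 250 bp from that of the row. Alp12, an alkaline phosphatase gene beside Pax, ranked 905 in replicate 2. The replicate 3 region there, ranked 201, is the one that covered the Pax row. It overlapped 20.25% of the Alp12 row, with its summit 173 bp away. Neither row was thus shown to be strong in replicate 3 at its own summit.

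The 5 rows of largest rank ratio were examined on each side. A strong region of the other replicate overlapped under 50% at 4 of the replicate 2-only rows and 3 of the replicate 3-only rows. Among them, CG13631 (22225 in replicate 3), P5CDh1 (25452) and an intron of NFAT (18555) each had a weak region counted as covering them. A strong region of the same replicate overlapped each under 50%, with its summit 19, 167 and 227 bp from that of the row. The intron of HmgD, which encodes an HMG-box protein, was the exception, at rank 1664 in replicate 2 and 12299 in replicate 3 with no strong region of replicate 3 there. On the replicate 3-only side CG31808 and introns of Mekk1 and msn, both genes of kinases in stress signalling, had such a strong region. CG17328 (rank 1059 in replicate 3 and 14698 in replicate 2) and CG11858 (1927 and 26642) did not. Better-ranked regions of replicate 2, at ranks 5522 and 10657, overlapped 47.2% and 44.1% of these rows. Their ratios thus also depend on the limit of 50%. Ratios of ranks therefore single out region boundaries and strong neighbouring summits as well as uneven strength.

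Rows covered by a weaker region of the other replicate show the unevenness itself, and they were ordered by pooled signal after the boundary rows had been seen. On the replicate 2-only side they began with lute on 3R, 36 bp upstream of its start site, at rank 1161 in replicate 2 and 4904 in replicate 3. After it came lncRNA:CR45451 (1593 and 4348), an intron of CG16952 (1293 and 4173), an intergenic row 1012 bp upstream of ex, a gene of the Hippo pathway (1430 and 4303), and PDZ-GEF (1479 and 4050). The replicate 3-only side began with CG2698, at rank 722 in replicate 3 and 7951 in replicate 2, and numb, which encodes an inhibitor of Notch signalling in asymmetric division, at 783 and 4463. TP53INP followed at 1085 and 4658, prd1 at 1284 and 4132, Cdk1 at 1120 and 6998, the autophagy gene Atg18a at 1147 and 5053, and an intron of Antp at 1170 and 4543. Antp was not confined to this side, since another of its introns held a replicate 2-only row at rank 3799 in replicate 2 and 4615 in replicate 3.

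No location share differed detectably between the sides. Summits lay within 500 bp of an annotated start site, here called promoter, at 200 of 359 replicate 2-only rows (55.7%, 95% Wilson interval 50.5 to 60.8), 347 of 624 replicate 3-only rows (55.6%, 51.7 to 59.5) and 1579 of 3003 rows of both (52.6%, 50.8 to 54.4). Introns held 28.7%, 33.0% and 33.4% of the 3 sets, and intergenic sequence 13.1%, 9.62% and 12.02%. Summits more than 2000 bp from any start site made up 22.3%, 27.4% and 27.1%, and rows on X 17.8%, 15.4% and 18.5%. None of these 15 comparisons passed (Fisher's exact test, two-sided, Benjamini-Hochberg over 21 comparisons, those of GC content and of summit position described next included): the smallest adjusted p was 0.211, for the distant share of replicate 2-only rows against both, with an odds ratio of 0.771 (95% interval 0.594 to 1.00). The odds ratio for promoters was 1.00 (0.773 to 1.30) for replicate 2-only against replicate 3-only.

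These shares depended on the rule. When 80% of a row had to be covered, promoters were more frequent in replicate 2-only rows (odds ratio 1.38, Fisher's exact test, adjusted p = 0.00247) and in replicate 3-only rows (1.26, 0.0088) than in both, and distant summits were less frequent in replicate 2-only rows (0.666, 0.00113). When 2016 regions were taken from each list, the promoter odds ratio of replicate 2-only against replicate 3-only was 0.597 (exact test, adjusted p = 0.000875), against 1.00 under the rule used here. The tests compare rows of 1 library with rows of another, not conditions, and neighbouring rows are not independent.

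**Figure D3:**
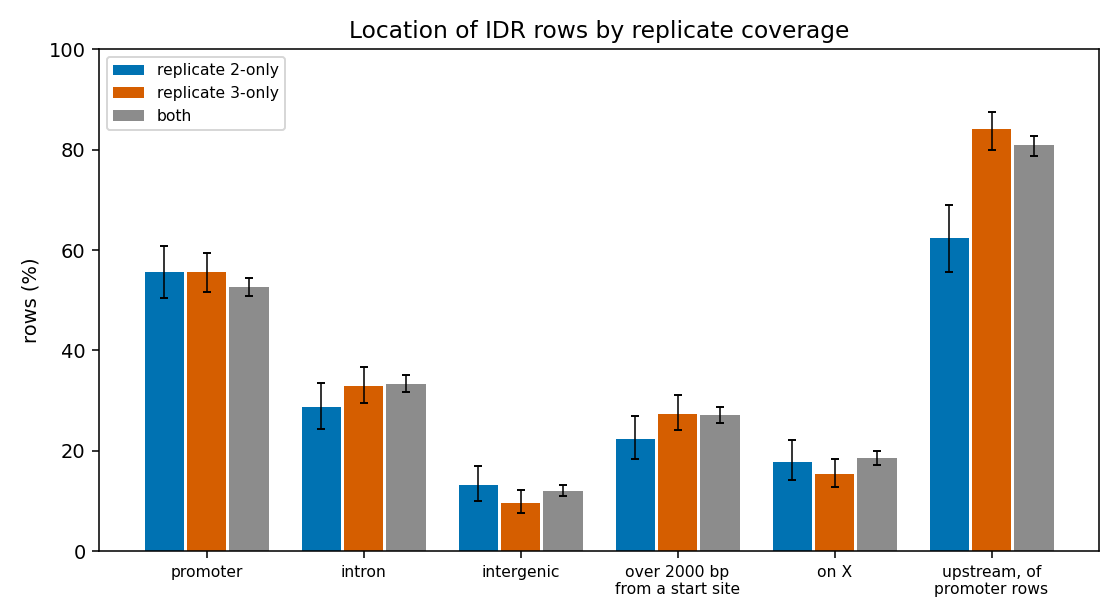
Percent of replicate 2-only rows (blue, n = 359), replicate 3-only rows (orange, n = 624) and rows of both (grey, n = 3003) by location, with 95% Wilson intervals. The last group is the share of promoter rows (n = 200, 347 and 1579) whose summit is upstream of the start site. The first 5 groups have overlapping intervals, and the upstream share is 62.5% in replicate 2-only rows, 84.1% in replicate 3-only rows and 80.9% in rows of both.

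The position of the summit relative to the start site was chosen as a measure after its values were seen, so it is given as a description with no p-value. Of the promoter summits, 125 of 200 (62.5%) were upstream of the nearest start site in replicate 2-only rows, 292 of 347 (84.1%) in replicate 3-only rows and 1277 of 1579 (80.9%) in rows of both. The odds ratio was 0.314 (95% interval 0.209 to 0.471) for replicate 2-only against replicate 3-only rows, 0.394 (0.288 to 0.539) for replicate 2-only rows against both and 1.26 (0.917 to 1.72) for replicate 3-only rows against both. The median position was 41.5 bp upstream in replicate 2-only rows, 86 bp in replicate 3-only rows and 93 bp in rows of both.

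Promoters shared by neighbouring coding genes made up a smaller share of the replicate 2-only promoter rows. Start sites of more than 1 protein-coding gene lay within 500 bp of the summit at 52 of 200 replicate 2-only promoter rows (26.0%, 95% Wilson interval 20.4 to 32.5), 140 of 347 replicate 3-only rows (40.3%, 35.3 to 45.6) and 604 of 1579 rows of both (38.3%, 35.9 to 40.7), counted after the upstream shares were known and not tested. A summit between divergent genes is upstream of both. With such rows left out, the odds ratio of upstream summits was 0.263 for replicate 2-only against replicate 3-only (95% interval 0.158 to 0.437) and 0.393 against both (0.273 to 0.566). With 6049 regions taken per list, which left 58 replicate 2-only rows, these odds ratios over all promoter rows were 0.322 (0.139 to 0.746) and 0.547 (0.272 to 1.10).

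GC content was the clearest difference between the sides. Sequence within 50 bp of the summit averaged 40.6 ± 9.87% GC in replicate 2-only rows, 35.2 ± 9.36% in replicate 3-only rows and 35.4 ± 8.74% in rows of both (SD over rows, n = 359, 624 and 3003). Replicate 2-only summits were 5.45 percentage points higher in GC than replicate 3-only summits (95% interval 4.19 to 6.71) and 5.22 points higher than those of both (4.15 to 6.29). Above the median of all IDR rows, 34.7%, were 237 of 359 replicate 2-only rows (66.0%), 276 of 624 replicate 3-only rows (44.2%) and 1381 of 3003 rows of both (46.0%). By Fisher's exact test replicate 2-only rows had an odds ratio of 2.45 against replicate 3-only (95% interval 1.87 to 3.21, adjusted p = 4.56e-10) and of 2.28 against both (1.81 to 2.87, adjusted p = 1.63e-11).

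The higher GC content of the replicate 2-only rows was present at every location examined. Its mean difference from replicate 3-only rows was 3.53 points (95% interval 1.53 to 5.54) at summits upstream of a start site, 7.24 points (3.68 to 10.8) at promoter summits downstream of one, 5.27 points (3.33 to 7.21) in introns and 4.63 points (1.36 to 7.90) between genes. Downstream promoter summits of the replicate 2-only side had the highest mean, 47.0 ± 9.36% (SD, n = 75), against 39.8 ± 10.6% (n = 53) on the replicate 3-only side and 38.6 ± 9.42% (n = 297) in rows of both. The odds ratios of a high GC content kept their direction and their call in all 13 alternatives, from 1.75 to 3.27 against replicate 3-only and from 1.47 to 2.68 against both. In 1 of these only the p-values were adjusted anew, so its odds ratios could not change. Pooled signal moved with the sides, and within 5 strata of it the odds ratio was 2.40 against replicate 3-only (Mantel-Haenszel test, n = 359 and 624, adjusted p = 1.15e-09) and 1.47 against both (n = 3003, adjusted p = 0.0101).

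**Figure D4:**
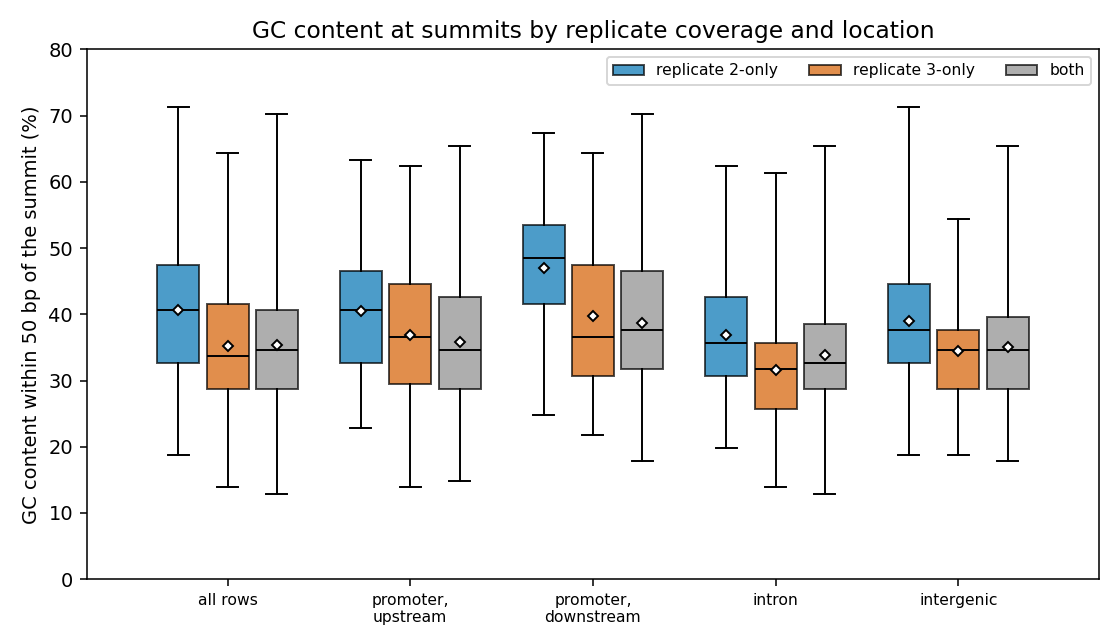
GC content (%) within 50 bp of the summit for replicate 2-only rows (blue), replicate 3-only rows (orange) and rows of both (grey), over all rows and by location. Boxes give the quartiles and median, whiskers the lowest and highest row and diamonds the mean. In each of the 5 groups the blue mean is the highest, with 40.6% against 35.2% and 35.4% over all rows.

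Replicate 3-only rows and rows of both did not differ detectably in GC over all rows, with a difference in means of -0.23 points (95% interval -1.03 to 0.57) and an odds ratio of 0.931 (0.783 to 1.11, Fisher's exact test, adjusted p = 0.561). In introns the replicate 3-only rows were lower by 2.29 points, with a mean of 31.6 ± 7.63% (SD, n = 206) against 33.9 ± 7.55% (n = 1003) and an interval of the difference from -3.43 to -1.14. Within strata of pooled signal the odds ratio of a high GC content was 0.631 (Mantel-Haenszel test, n = 624 and 3003, adjusted p = 4.05e-05). Among rows away from promoters it was 0.693 (Fisher's exact test, adjusted p = 0.00868), and at promoters 1.13 (adjusted p = 0.314). With GC content read over the whole length of each row instead of the summit window, the odds ratio over all rows was 0.769 (Fisher's exact test, adjusted p = 0.0134). The call for replicate 3-only rows against both thus changed with the rows compared and with the stretch read. Whether the locations differ in it was not tested.

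The lists from which the sides were drawn differed in the same measures. The 4033 strongest regions of replicate 2 averaged 37.5 ± 9.45% GC and those of replicate 3 35.2 ± 8.93%, and 25098 pooled relaxed regions away from all IDR rows averaged 45.4 ± 11.6%. Among promoter summits, 73.7% were upstream in the strongest regions of replicate 2, 81.4% in those of replicate 3 and 48.7% in the other relaxed regions. In both measures the replicate 2-only rows lay between the rows of both and the other relaxed regions.

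Matches to 3 of the 7 motifs searched differed between the sides, which also differed in base composition. A TATA box (TATAAA on either strand) lay within 50 bp of the summit at 41 of 359 replicate 2-only rows (11.4%), 141 of 624 replicate 3-only rows (22.6%) and 522 of 3003 rows of both (17.4%), against 10.5% of the other relaxed regions over the same length. The odds ratio was 0.442 (Fisher's exact test, Benjamini-Hochberg over 21 motif comparisons, adjusted p = 0.000126) for replicate 2-only against replicate 3-only, 0.613 (adjusted p = 0.00917) for replicate 2-only against both and 1.39 (adjusted p = 0.00917) for replicate 3-only against both. GAGA (GAGAG on either strand) stood at 15.3%, 8.97% and 9.69% of the 3 sets and at 12.6% of the other relaxed regions, with odds ratios of 1.84 (same exact test, adjusted p = 0.00917) for replicate 2-only against replicate 3-only and 1.69 (adjusted p = 0.0088) against both.

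The CGCG box, the element that Camta family proteins recognise, was spelled as CGCG preceded by A, C or G and followed by C, G or T, on either strand. It was present at 44 replicate 2-only rows (12.3%, 95% Wilson interval 9.26 to 16.1), 37 replicate 3-only rows (5.93%, 4.33 to 8.07) and 167 rows of both (5.56%, 4.80 to 6.44), beside 10.6% of the other relaxed regions. The odds ratio was 2.22 (Fisher's exact test, adjusted p = 0.00487) for replicate 2-only against replicate 3-only and 2.37 (adjusted p = 0.000126) against both. Within 5 strata of GC content it was 1.46 (Mantel-Haenszel test, n = 359 and 624, adjusted p = 0.372) and 1.45 (n = 3003, adjusted p = 0.227), so that neither call was kept. The other calls of the replicate 2-only side ended there as well, at 0.672 and 0.88 for the TATA box and 1.36 and 1.35 for GAGA, with adjusted p from 0.227 to 0.612. Over 8 alternatives, the calls of replicate 2-only rows held in 6 for the CGCG box against either set, in 6 and 5 for the TATA box against replicate 3-only and both, and in 2 and 4 for GAGA.

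Motif 1 (GGTCACAC on either strand), the site of M1BP, was found at 3 replicate 2-only rows (0.836%), 17 replicate 3-only rows (2.72%) and 32 rows of both (1.07%), against 0.737% of the other relaxed regions. The odds ratio of replicate 3-only against both was 2.60 (95% interval 1.44 to 4.71, Fisher's exact test, adjusted p = 0.00917), and within strata of GC content it was 2.63 (Mantel-Haenszel test, adjusted p = 0.0235). For replicate 2-only against replicate 3-only rows it was 0.301 (Fisher's exact test, adjusted p = 0.136) over all rows and 0.173 within strata of GC content (Mantel-Haenszel test, n = 359 and 624, adjusted p = 0.0321), a call gained there on 3 and 17 rows. The TATA box of the replicate 3-only rows also kept its call there, at 1.39 against both (n = 624 and 3003, adjusted p = 0.0321). It missed the threshold with any overlap of 1 bp (1.31, exact test, adjusted p = 0.055) and with 2016 regions per list (1.38, adjusted p = 0.0633). With 2016 regions per list the Motif 1 odds ratio was 0.25 (exact test, adjusted p = 0.322), which turns its direction, and it was called in 5 of 8 alternatives and rests on 17 rows. The DRE (TATCGATA, at 3.06%, 2.72% and 1.93%), its core (CGATA, at 19.8%, 18.8% and 17.0%, which the DRE contains) and CAGGTA (1.11%, 2.24% and 1.77%) did not pass in any comparison, and the other relaxed regions held them at 0.717%, 12.3% and 2.35%.

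**Figure D5:**
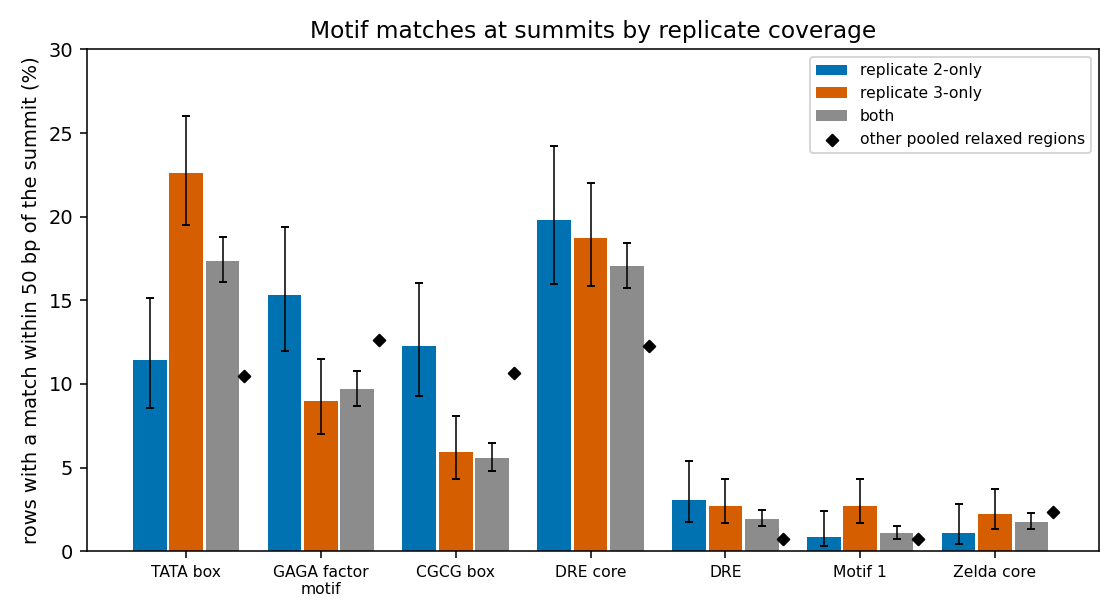
Percent of rows with a motif match on either strand within 50 bp of the summit, in replicate 2-only rows (blue, n = 359), replicate 3-only rows (orange, n = 624) and rows of both (grey, n = 3003), with 95% Wilson intervals, and in 25098 other relaxed regions (black diamonds). The TATA box is least frequent in the blue rows at 11.4%, and GAGA at 15.3% and the CGCG box at 12.3% are most frequent there.

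The genes at uneven promoters were few beside those at shared ones. A replicate 2-only summit lay within 500 bp of a start site of 238 protein-coding genes, 1.71% of the 13945 annotated, a replicate 3-only summit at 471 (3.38%) and a summit of both at 1979 (14.2%). Of the 700 genes with a row of either side, 615 had no row of both. Most protein-coding genes of any kind had none either, since 1979 of 13945 (14.2%) had one, so this count is no trait of these genes. The nearest start site belonged to a protein-coding gene at 89.1%, 91.2% and 87.4% of the 3 sets of rows, and to a non-coding RNA gene other than tRNA, snoRNA and snRNA at 10.3%, 7.69% and 11.2%. Camta's own promoter row was covered in both, at ranks 598 and 842 in replicates 2 and 3, and so were both rows of the calmodulin gene Cam.

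Cytosolic ribosomal protein genes were mostly covered in both replicates. Of 86 cytosolic ribosomal protein genes, 3 had a replicate 2-only summit (3.49%), 4 a replicate 3-only summit (4.65%) and 65 a summit of both (75.6%), beside 1.71%, 3.38% and 14.2% of all protein-coding genes. The replicate 2-only rows were at sta (rank 1698 in replicate 2 and 5196 in replicate 3), RpL6 (1737 and 5990) and RpS3 (3410 and 5243), and none of these 3 genes had a row of both. All 4 genes on the replicate 3-only side also had a row of both, and at all 4 a strong region of replicate 2 overlapped the replicate 3-only row under 50%. That region ranked 215 at RpL34b, 253 at RpS25 and 532 at RpS5a, and overlapped 21.7%, 19.6% and 47.4% of the row. The regions that covered these rows ranked 17110, 12339 and 6046 in replicate 2, and 1699, 3519 and 490 in replicate 3. Among 73 mitochondrial ribosomal protein genes 1 was replicate 2-only (1.37%), mRpL51, 5 were replicate 3-only (6.85%), with mRpS7, mRpL18 and mRpS25 the strongest, and 19 had a row of both (26.0%). The row of mRpS7 (6998 in replicate 2 and 1120 in replicate 3) is that of Cdk1, with which it shares a promoter.

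Of 53 translation factor genes, 3 were replicate 2-only (5.66%), 4 replicate 3-only (7.55%) and 15 in both (28.3%), beside the same 1.71%, 3.38% and 14.2% of all protein-coding genes, with no test. Beside eIF3h, the replicate 2-only genes were eIF3f1 (rank 3102 in replicate 2 and 4255 in replicate 3) and eIF2beta (2619 and 4543), and the replicate 3-only side was led by the initiation factor gene eIF1A (10643 and 1870), the release factor gene eRF1 (4305 and 2512) and eIF5B (4818 and 2659). Of 41 cell cycle and DNA replication genes, 1 was replicate 2-only (2.44%), 4 were replicate 3-only (9.76%) and 11 in both (26.8%). Mcm5, a subunit of the replicative helicase, was the replicate 2-only gene and also had a row of both. Its replicate 2-only row ranked 3342 in replicate 2 and 4472 in replicate 3, near the limit. A region of rank 2567 in replicate 3 also overlapped the row, over 48.6% of its length. Beside Cdk1, the checkpoint gene BubR1 ranked 6680 in replicate 2 and 2485 in replicate 3, and rux 4055 and 2454.

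Chromatin regulators had rows on both sides. Of 30 Polycomb, trithorax and remodelling genes 3 were replicate 2-only (10%), 4 replicate 3-only (13.3%) and 10 in both (33.3%), counts given without a test beside the 1.71%, 3.38% and 14.2% of all protein-coding genes. Pc, which encodes the subunit of PRC1 that binds methylated histone H3, ranked 3415 in replicate 2 and 4541 in replicate 3, and Iswi, a remodelling ATPase gene, 3879 and 4190, so both lay close to the limit. kis, the gene of a chromodomain remodelling protein, ranked 3080 and 7384 and also had a row of both. On the replicate 3-only side, the PRC2 genes E(z), the methyltransferase, and esc ranked 4485 and 5230 in replicate 2 and 2157 and 3415 in replicate 3, and jing ranked 21827 and 2862. Of 18 insulator and core promoter factor genes, 2 were replicate 3-only, BEAF-32 (4923 and 2193), which also had a row of both, and M1BP (6223 and 3371), none was replicate 2-only and 8 had a row of both.

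Of 37 segmentation and homeotic genes none had a promoter row on either side and 1 had a row of both, so the rows at pb and Antp shown above are in introns. Of 40 developmental signalling genes 3 were replicate 2-only, the hedgehog receptor gene ptc (rank 2459 in replicate 2 and 4881 in replicate 3), N, which encodes the Notch receptor (2243 and 6898), and dome, which encodes the receptor of the JAK-STAT pathway (2103 and 6732). That is 7.50% of the list on the replicate 2-only side, and its shares were 10% on the replicate 3-only side and 20% in both, beside 1.71%, 3.38% and 14.2% of all protein-coding genes, with no test. On the replicate 3-only side were 4, among them spi, arr, which encodes a Wnt co-receptor (4539 and 2901), and Su(H), the transcription factor of the Notch pathway (4221 and 3234), and 8 genes had a row of both.

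Lists of tissue genes had at most 2 members on a side, counts given without a test. Of all protein-coding genes 1.71% were replicate 2-only, 3.38% replicate 3-only and 14.2% in both. In lists of 18 to 31 genes, one-sided counts this small are close to those shares. Of 29 proneural, neuroblast and glial genes, scrt (rank 3407 in replicate 2 and 4213 in replicate 3) was replicate 2-only, numb replicate 3-only and 3 had a row of both. Of 31 genes of neuronal function, the axon guidance receptor gene robo1 (2307 and 4193) was replicate 2-only and the adhesion gene Fas2 (5163 and 2652) replicate 3-only, with 3 in both. Of 30 muscle and heart genes, the integrin gene if (4444 and 2408) and Mef2 (10704 and 2759), the muscle transcription factor, were replicate 3-only, none was replicate 2-only and 6 had a row of both. None of 22 heat shock and chaperone genes was on either side, with 8 in both, and of 18 calcium signalling and Camta-linked genes Fbxl4 alone was replicate 2-only, by region boundary, with 1 in both and none replicate 3-only.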

How the data were processed

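ChIP-seq peak lists on genome build dm6 from 2 biological replicates of 1 group were used. Per the file records, the authors made relaxed lists from each replicate and from the pool, each with 1 further file in common, and derived the optimal IDR list from these. The signal value of a region is as deposited by the authors, its scaling not given in the sources used here, so levels were not compared between lists. Deposited q values are −log10. The sources used here name neither the aligner nor the peak caller. Each library was sheared to 200 to 800 (unit not stated), per the labels.

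Summits were placed on the Ensembl release 115 annotation of BDGP6.54, in the order promoter, coding exon, UTR, non-coding exon, intron, intergenic. GC content and motifs were read from the RefSeq Release 6 assembly. The gene of a row is that of the nearest start site, or the host gene of an intronic summit. Shares carry Wilson intervals and odds ratios 95% intervals with Fisher's exact test and Benjamini-Hochberg adjustment. Stratified odds ratios are Mantel-Haenszel estimates, and under each alternative p-values were adjusted over its own comparisons. The members and gene lists were chosen with earlier results of these data known. Genes named are the 10 rows of highest pooled signal and the 5 of largest rank ratio on each side, the rows at the limits, up to 3 genes of each of 13 lists per side, and Camta, Cam and Fbxl4; 1 row that this rule names is not reported here. Rows with a weaker covering region and the printed windows were chosen after their values were seen. Of the listed symbols 6 were unmatched. The calculations were tested on simulated data. Python 3.11.15, pandas 2.3.3, SciPy 1.17.1, statsmodels 0.14.6 and matplotlib 3.10.9 were used.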

Additional observations from a re-analysis of the deposited data

How the results depend on the processing

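Leaving out a replicate was not possible, since the rule needs both, and no paired analysis was possible because there is 1 group. Of 396 values recomputed under alternatives, 308 kept their direction and their side of the threshold. Some could not change direction: the 18 whose p-values alone were adjusted anew, and the upstream shares recomputed on promoter rows, which repeat the main ones. The alternatives changed the overlap, the regions per list, the windows or the rows, and several change which rows are members, so the cause of a change was not tested beyond that. Values are odds ratios; "2v3", "2vB" and "3vB" stand for replicate 2-only against replicate 3-only, replicate 2-only against both and replicate 3-only against both.

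With any overlap of 1 bp, the intron share reversed (3vB 1.02), and calls were lost for the TATA box (3vB 1.31) and GAGA (2v3 1.56). With coverage of 80% the replicate 2-only rows numbered 557, and calls were lost for the TATA box (2vB 0.751) and GAGA (2v3 1.36). Promoter shares were then called (2vB 1.38, 3vB 1.26), as were introns (2vB 0.76) and distant summits (2vB 0.666), and directions turned, uncalled, for intergenic (2vB 0.816), distant (3vB 0.836) and X (2v3 0.964) shares, Motif 1 (2vB 1.53), GAGA (3vB 1.10) and the CGCG box (3vB 0.855). With 6049 regions per list 58 rows were replicate 2-only and 236 replicate 3-only. Calls were lost for the CGCG box (2v3 2.18, 2vB 2.10), GAGA (2v3 3.36, 2vB 2.31), the TATA box (2v3 0.585) and Motif 1 (3vB 1.35). High GC content was called for 3vB (0.681) and the upstream share, for which no test is claimed, stood at 0.322 (2v3) and 0.547 (2vB). Uncalled reversals were intergenic (2vB 0.68), distant (3vB 0.797), X (2vB 1.05), DRE (0.81, 0.791 and 0.976), DRE core (0.601, 0.536 and 0.892), Motif 1 (2v3 1.02, 2vB 1.38), the CGCG box (3vB 0.965) and, called before, the TATA box (2vB 1.01).

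With 2016 regions per list, promoters (2v3 0.597, called) and distant summits (2v3 1.59 and 3vB 0.719, both called) turned, and promoters were called for 3vB (1.45). Calls were lost for the TATA box (3vB 1.38) and GAGA (2v3 1.70, 2vB 1.33). Uncalled reversals were promoters (2vB 0.863), introns (2v3 1.37, 2vB 1.06), distant (2vB 1.14), X (2v3 0.976), DRE (3vB 0.512), Motif 1 (2v3 5.58, 2vB 1.39, 3vB 0.25), the CGCG box (3vB 0.754) and CAGGTA (1.11 and 1.19 for the replicate 2-only side). In the lower 50% by pooled signal, calls were gained for distant summits (2vB 0.675) and high GC (3vB 0.706), the upstream share stood at 1.61 (3vB), and distant summits (3vB 0.894) and the CGCG box (3vB 0.909) turned. The call of Motif 1 was lost there (3vB 1.92). The promoter share turned with repeated rows counted once (2v3 0.999) and with a window of 250 bp (2v3 0.867). GC of the whole row was called for 3vB (0.769). With a motif window of 100 bp, DRE (2v3 0.734), its core (2v3 0.99) and CAGGTA (3vB 0.908) turned, and GAGA lost its calls (2v3 1.46, 2vB 1.22).

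Alternatives added after seeing the data gave a high GC share for 3vB of 1.13 at promoters and 1.16 at upstream promoter rows, both reversed, and calls of 0.693 away from promoters and 0.631 within strata of pooled signal. Without boundary rows introns turned (3vB 1.01). Within strata of GC content DRE (2v3 0.723) and its core (2v3 0.889, 2vB 0.981) turned. The replicate 2-only calls for the TATA box, GAGA and the CGCG box were lost there, and Motif 1 gained a call (2v3 0.173). Adjusting p-values over the 18 comparisons without the upstream share changed no call of the other shares. The dm3 lists gave 339 replicate 2-only and 597 replicate 3-only rows. Depth, fragment length and the control were not analysed here.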

Other observations

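The 47 IDR rows covered in neither replicate were mostly near the limit of both lists, and their genes are named here after their values were seen. The strongest, 723 bp from the start of RasGAP1 between genes, had a pooled signal value of 532.6, and regions of rank 108 in replicate 2 and 173 in replicate 3 overlapped it over 42.4% and 48.3% of its length. An intron of schlank, the ceramide synthase gene, met regions of rank 177 and 174 over 41.4% and 35.95%, and the row at Tsp42El, a tetraspanin gene, regions of rank 296 and 234 over 39.96% and 47.3%. Among the 47 rows, a strong region overlapped under 50% at 6 rows in replicate 2 and 7 in replicate 3. Among the rest, Slbp, the histone mRNA binding protein gene, ranked 6152 in replicate 2 and 4670 in replicate 3, and an intron of the Hippo kinase gene wts 4838 and 4063. The mean GC content at their summits was 39.6 ± 10.3% (SD, n = 47), and 14 of their 22 promoter summits (63.6%) were upstream of the start site.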
